A study of Mus musculus with 9 samples.

Results

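Complex I (NADH:ubiquinone oxidoreductase) is the entry point of the mitochondrial respiratory chain. It takes electrons from NADH, passes them along a flavin and a row of iron-sulfur clusters in its peripheral arm to ubiquinone, and pumps protons through its membrane arm. A small conserved core does this chemistry, and many accessory subunits surround it; most are encoded in the nucleus and imported, and the membrane core is encoded in mitochondrial DNA. Skeletal muscle fibres are rich in mitochondria, and muscle is among the tissues most affected when complex I fails.

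The genes described here are the nuclear subunit genes whose symbol is Ndufa, Ndufb, Ndufc, Ndufs or Ndufv followed by a number, with Ndufab1 added and the Ndufaf assembly factors left out. Of 38 such genes 33 were measured, among 22180 genes in all, with 1 probe set for each gene. Ndufb2, Ndufb4 and Ndufs6 were found only on probe sets that also name another gene, and these and the other unmeasured genes were not analysed here; no probe set was named for a mitochondrially encoded subunit either. Ndufa4 is included because of its name, although it is now counted as a subunit of cytochrome c oxidase (complex IV).

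RNA came from hindlimb muscle of mice of mixed strain at postnatal day 2 (P2), day 7 (P7) and day 14 (P14), with 3 biological replicates and 1 array each at every age, 9 arrays in all. No treatment, transgene or mutation is given for any age, and the sources used here do not give the sex of the mice or how many went into a replicate. The p-values therefore reflect the variation among these particular samples, which may be technical in part. Muscle fibre markers were bright at all ages (actin Acta1 at 11.85 to 12.13 and titin Ttn at 11.19 to 11.49, log2 intensity), and the liver markers Alb, Apoa1 and Ttr together had array medians of 2.62 to 3.29. By itself Apoa1 read 3.06 to 3.98, above the background guide given below on 7 of 9 arrays.

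Values are log2 intensities, so 1 unit is a doubling, and a gene was called when limma's adjusted p was under 0.05. A probe set's own level can be compared between ages but not with that of another probe set. As a guide to background, the means of 1428 olfactory, vomeronasal and taste receptor genes were taken, and their 95th percentile was 3.24. On every array 31 of the 33 members lay above it; Ndufb11 did on 7 of 9 arrays and Ndufs5 on 2, so their sizes of change are uncertain.

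Complex I transcripts were higher at P14 than at P2. Of the 33 members 26 rose, 0 fell and 7 were not called. Over all genes 6.63% were called higher and 4.4% lower, and among the 12051 genes brighter than the median of all genes 11.6% were called higher. At an unadjusted p under 0.05, 29 members were higher (13.7% of all genes). The members' median log2 change was 0.84, or 1.78-fold (quartiles 0.65 and 1.14), against 0.01 over all genes. Of the 26 members 11 rose at least 2-fold. The share of all genes at that size was not counted, but their upper quartile was a log2 change of 0.25, and that of the brighter genes 0.38. In 29 of 33 members the 3 P14 arrays all lay above the 3 P2 arrays, which was so for 16.2% of all genes and 24.7% of the brighter ones. Without Ndufa4 the count was 25 of 32. Leaving out 1 array gave 17 to 27 calls; it was 18 without P2 replicate 1, 17, 18 and 19 without P14 replicates 1, 2 and 3, and 24 to 27 without any of the other arrays.

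**Figure D1:**
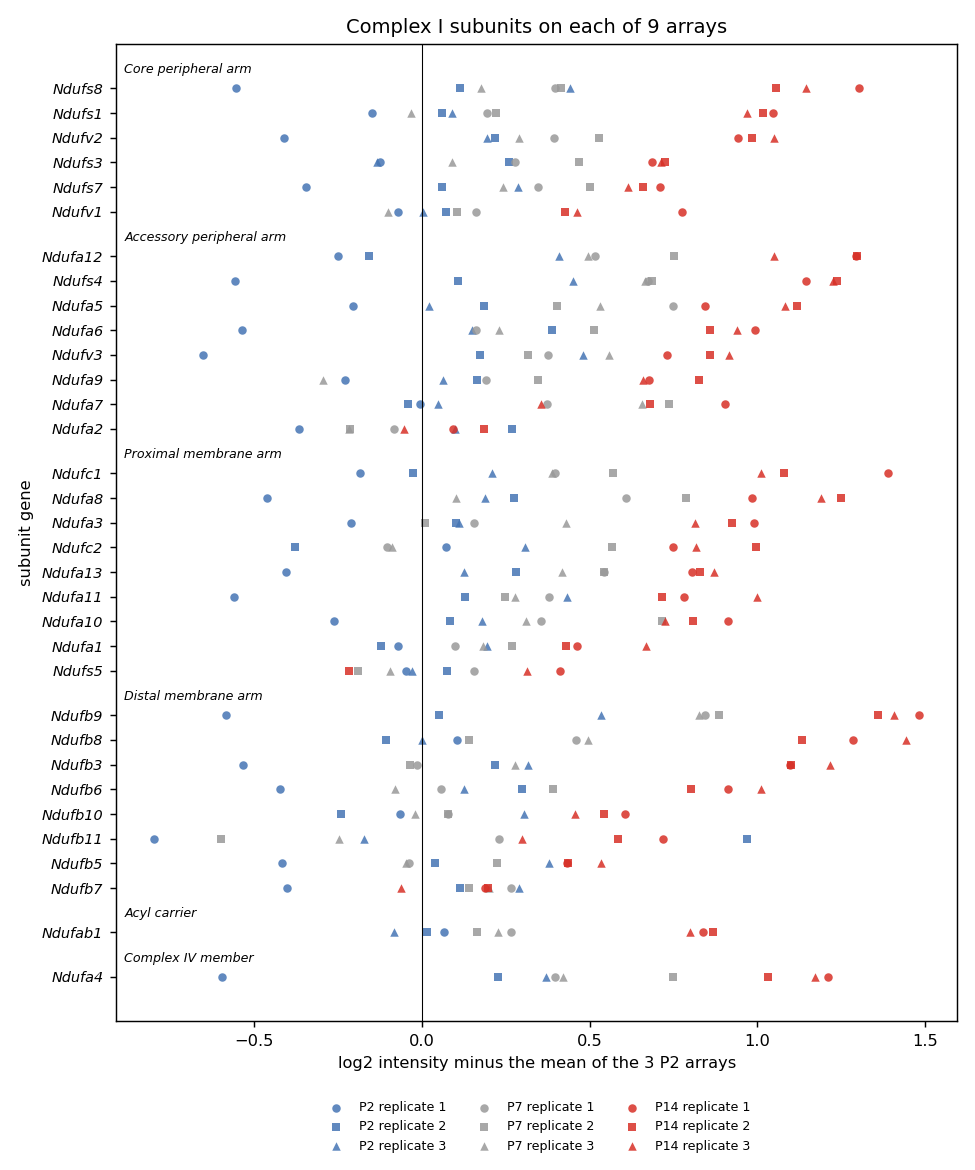
Log2 intensity of each of the 33 subunit genes on all 9 arrays, drawn as the difference from that gene's mean over the 3 P2 arrays and grouped by place in the enzyme. Colours mark the age and shapes the replicate; the P14 points lie above all P2 points in 29 genes, and the circle of P2 replicate 1 is the lowest P2 point in 26.

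The peripheral arm core holds the redox groups. All 6 measured members of it rose from P2 to P14 (median 0.85). Ndufs1, the largest iron-sulfur subunit, had values of 6.88, 7.09 and 7.12 at P2, 7.23, 7.25 and 7.00 at P7, and 8.08, 8.05 and 8.0 at P14. The P2 and P7 arrays overlapped, and every P14 array was higher than all 6 of them. Its log2 change over the whole span was 1.01 ± 0.16 (SE; 2.02-fold, adjusted p = 0.000966), and most of this lay between P7 and P14. Ndufs8, which carries iron-sulfur clusters next to the quinone site, read 6.58, 7.25 and 7.58 at P2, 7.53, 7.55 and 7.32 at P7, and 8.44, 8.19 and 8.28 at P14. Its P2 values spread over 1 unit, and the P14 arrays were above all others (1.17 ± 0.22, adjusted p = 0.00356). Ndufv2, an iron-sulfur subunit near the NADH site, was at 7.04, 7.68 and 7.65, then 7.85, 7.99 and 7.75, then 8.40, 8.44 and 8.51, with no overlap between any of the ages (0.99 ± 0.19, adjusted p = 0.00363).

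Smaller rises were seen in the other core genes. Ndufs3, a scaffold of the quinone module, rose by 0.71 ± 0.17 (adjusted p = 0.0167), and Ndufs7, which binds the last iron-sulfur cluster before ubiquinone, by 0.66 ± 0.18 (0.0315). Ndufv1, which binds NADH and the flavin, rose by 0.55 ± 0.17 (1.47-fold, 0.0473). The call of Ndufv1 was lost without any 1 of the 9 arrays (adjusted p up to 0.204), and those of Ndufs3 and Ndufs7 without P2 replicate 1 or any P14 array (up to 0.0657 and 0.126).

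Accessory subunits of the peripheral arm surround this core. Of 8 measured, 7 rose (median 0.88) and 1, Ndufa2, was not called. Ndufa12, at the base of the NADH-binding module, had values of 5.11, 5.20 and 5.77 at P2, 5.87, 6.11 and 5.85 at P7, and 6.65, 6.66 and 6.41 at P14. The 3 ages did not overlap, and the whole change was 2.32-fold (log2 1.21 ± 0.20, adjusted p = 0.00105). Ndufs4, whose loss causes a Leigh-like disease in mice, was at 5.83, 6.49 and 6.83 at P2, 7.06, 7.07 and 7.05 at P7, and 7.53, 7.62 and 7.61 at P14. The 3 P7 arrays had an SD of 0.01 and the P2 arrays one of 0.51; the rise was 2.30-fold (1.20 ± 0.22, adjusted p = 0.00248). Ndufa5, an accessory protein of the quinone module, was at 4.97, 5.36 and 5.19 at P2, 5.92, 5.57 and 5.70 at P7, and 6.02, 6.29 and 6.26 at P14, again with no overlap (1.02 ± 0.18, adjusted p = 0.00184).

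Ndufa6, which anchors an acyl carrier protein on the peripheral arm, rose by 0.93 ± 0.22 (adjusted p = 0.0127; 0.0549 without P14 replicate 1). Ndufv3 rose by 0.84 ± 0.24 and Ndufa9, a reductase-like protein with a bound nucleotide, by 0.72 ± 0.19; both calls were lost without P2 replicate 1 or any P14 array (adjusted p up to 0.122 and 0.110), and Ndufv3 was at 0.51 without P2 replicate 1. Ndufa7 rose by 0.65 ± 0.18 (0.0334; lost without any P2 array or P14 replicates 1 or 2, up to 0.163). The values of Ndufa7 were 4.39, 4.35 and 4.45 at P2, 4.77, 5.13 and 5.05 at P7, and 5.30, 5.08 and 4.75 at P14, so P7 and P14 overlapped and P2 lay below both.

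Ndufa2, which has a thioredoxin-like fold, had the smallest change of the members. It read 5.81, 6.45 and 6.28 at P2, 6.10, 5.97 and 5.96 at P7, and 6.27, 6.37 and 6.13 at P14. The P2 arrays enclosed the P14 range, and the change was 0.08 ± 0.19 (adjusted p = 0.854). All 33 estimates from P2 to P14 were above 0 as deposited (51.8% of all genes), but those of Ndufa2 and Ndufb7 turned negative without P2 replicate 1 (-0.11 and -0.09) and with cyclic loess scaling (-0.05 and -0.02).

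Accessory subunits at the proximal end of the membrane arm lie around the ubiquinone entry and the first proton pumps. Of 9 measured, 7 rose (median 0.84), and Ndufa1 and Ndufs5 were not called. Ndufc1, a small membrane-spanning subunit, was at 5.61, 5.77 and 6.01 at P2, 6.19, 6.37 and 6.18 at P7, and 7.19, 6.88 and 6.81 at P14. Each age lay above the one before on all arrays (1.16 ± 0.18, 2.24-fold, adjusted p = 0.000661). Ndufa8, a cysteine-rich protein on the intermembrane side, was at 6.68, 7.41 and 7.33, then 7.75, 7.93 and 7.24, then 8.12, 8.39 and 8.33, with P2 and P7 overlapping (1.14 ± 0.23, adjusted p = 0.00464). Ndufa3, another small membrane subunit, read 7.71, 8.02 and 8.03 at P2, 8.08, 7.93 and 8.35 at P7, and 8.91, 8.85 and 8.74 at P14, where P14 alone stood clear of the other ages (0.91 ± 0.17, adjusted p = 0.00375).

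Ndufc2 rose by 0.85 ± 0.22, Ndufa13 (also known as Grim19) by 0.84 ± 0.19, Ndufa11 by 0.83 ± 0.22 and Ndufa10, which resembles nucleoside kinases, by 0.82 ± 0.18. The call of Ndufc2 was lost without P2 replicates 1 or 2 or any P14 array (adjusted p up to 0.0975), and that of Ndufa11 without P2 replicate 1 (log2 change 0.55) or any P14 array (up to 0.106), and with the mean of its probe sets (0.0610). Ndufa1, an X-linked subunit, missed the threshold (0.52 ± 0.17, adjusted p = 0.0580), although its P14 arrays (6.63, 6.60 and 6.84) were all above those of P2 (6.10, 6.05 and 6.36); it was called without P2 replicate 3 (0.0359), with dim genes left out (0.0294) and with a variance trend (0.0339). Ndufs5 read 2.91, 3.04 and 2.93 at P2, 3.12, 2.77 and 2.86 at P7, and 3.37, 2.74 and 3.27 at P14. These lie around the receptor level, and its change of 0.17 ± 0.19 was not called (adjusted p = 0.651; log2 changes of 0.0473, 0.36 and 0.0967 without P14 replicates 1, 2 and 3). RefSeq lists a transcribed pseudogene of Ndufs5, and another probe set that names both was not used.

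The Ndufb subunits sit at the distal end of the membrane arm, around the last proton pumps. Of 8 measured, 4 rose (median 0.72). Ndufb9, which binds the second acyl carrier protein of the enzyme, had the largest change of all members. It read 9.25, 9.88 and 10.37 at P2, 10.68, 10.72 and 10.66 at P7, and 11.32, 11.19 and 11.24 at P14. The ages did not overlap, and the rise was 2.67-fold (1.42 ± 0.23, adjusted p = 0.00106). Ndufb8, a subunit often probed as a sign of assembled complex I, was at 4.89, 4.68 and 4.78, then 5.24, 4.92 and 5.28, then 6.07, 5.92 and 6.23. The P2 arrays had an SD of 0.11, the ages were separate, and it had the smallest adjusted p of the members (1.29 ± 0.17, 2.44-fold, adjusted p = 0.000224). Ndufb3 was at 4.79, 5.54 and 5.64 at P2, 5.31, 5.29 and 5.60 at P7, and 6.42, 6.43 and 6.54 at P14. P2 and P7 overlapped and P14 was higher than both (1.14 ± 0.21, adjusted p = 0.00329).

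Ndufb6 rose by 0.91 ± 0.21 (adjusted p = 0.0104). The other distal genes were not called: Ndufb10 was at 0.54 ± 0.17 (0.0647), Ndufb11 at 0.53 ± 0.34 (0.378), Ndufb5 at 0.47 ± 0.20 (0.163) and Ndufb7 at 0.11 ± 0.19 (0.789). Without P2 replicate 3 Ndufb10 (0.69, adjusted p = 0.0200) and Ndufb5 (0.66, 0.0435) were called, and without P2 replicate 2 Ndufb11 (1.02, 0.0224); without P2 replicate 1 Ndufb5 was at 0.26 and Ndufb11 at 0.13, not called. Ndufb10 was also called with dim genes left out (0.0337). Ndufb7, a cysteine-rich subunit on the intermembrane side, read 5.74, 6.26 and 6.43 at P2, 6.41, 6.29 and 6.35 at P7, and 6.33, 6.34 and 6.08 at P14, so the ages overlapped.

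Ndufab1 is the mitochondrial acyl carrier protein, which serves fatty acid synthesis and sits in complex I. It was at 4.76, 4.71 and 4.61 at P2, 4.96, 4.86 and 4.92 at P7, and 5.53, 5.56 and 5.49 at P14. Each age lay above the one before, with SDs of 0.03 to 0.08, and the rise was 1.78-fold (0.84 ± 0.15, adjusted p = 0.00270). Ndufa4, the complex IV protein, was at 8.24, 9.06 and 9.20, then 9.23, 9.58 and 9.25, then 10.04, 9.87 and 10.01; the ages did not overlap and it rose 2.20-fold (1.14 ± 0.23, adjusted p = 0.00499). RefSeq also lists pseudogenes of Ndufa11, Ndufa12 and Ndufab1, whose share in these signals was not tested. Ndufa8, Ndufa11 and Ndufa12 each had a second, dimmer probe set. From P2 to P14 these differed by 0.85, 0.46 and 0.65, against 1.14, 0.83 and 1.21 for the probe sets used. That of Ndufa12 had means of 4.44 at P2, 5.14 at P7 and 5.09 at P14, so its mean did not rise in the second week.

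Promoters of a few members are shown so that their sequence can be set beside the changes. RefSeq promoter windows (GRCm38.p6; 250 bases before to 50 after the start) were at hand for 30 of the 33 members, not for Ndufa2, Ndufb9 and Ndufs1. The 150 bases before the start follow, on the strand of the gene, for 3 members called from P7 to P14 and for Ndufb7, which was not called between any ages. They lie at chr19:44555443-44555592 (minus strand), chr1:58586247-58586396 (plus), chr3:51408956-51409105 (minus) and chr8:83566608-83566757 (plus), in this order. Capitals mark the only match to a searched motif in these stretches, the ETS letters CCGGAAG before Ndufb7.
Ndufb8: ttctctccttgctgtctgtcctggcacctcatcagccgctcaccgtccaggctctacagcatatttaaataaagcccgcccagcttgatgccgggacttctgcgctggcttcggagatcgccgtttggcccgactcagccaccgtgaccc
Ndufb3: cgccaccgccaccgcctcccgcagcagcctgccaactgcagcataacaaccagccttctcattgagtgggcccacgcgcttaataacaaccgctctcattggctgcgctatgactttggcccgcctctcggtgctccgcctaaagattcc
Ndufc1: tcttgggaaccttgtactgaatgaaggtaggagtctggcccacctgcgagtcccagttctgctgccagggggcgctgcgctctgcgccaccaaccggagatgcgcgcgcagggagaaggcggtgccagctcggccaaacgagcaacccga
Ndufb7: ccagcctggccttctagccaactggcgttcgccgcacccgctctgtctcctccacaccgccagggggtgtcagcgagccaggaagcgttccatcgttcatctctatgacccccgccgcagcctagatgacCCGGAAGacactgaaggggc

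Most member promoters were rich in CG pairs. At least 10 of them stood in 29 of 30 windows, against 45.8% of the 27025 genes with a window (medians of 19.5 and 8). Both strands were searched for 4 motifs, a gene counting where any of its windows matched; in no member did matches of different motifs share bases. The NRF1 motif (GCGCA, any base, GCGC) matched in 5 of 30 members (16.7%; 5.19% of all genes, and 11.1% of genes with at least 10 CG pairs). The ETS letters CCGGAAG matched in 4 (13.3%; 9.93% and 18.5%) and the oestrogen-related receptor letters AAGGTCA in 1 (3.33%; 5.38% and 3.44%). The YY1 letters AAGATGGC matched in 6 (20%; 3.19% and 4.98%). Of the 30 members with a window 24 rose from P2 to P14, so most matches would fall among them in any case. All 6 YY1 matches were among these 24 and 0 among the 6 that were not called, a difference that was not tested. The NRF1 motif matched in 4 and 1 of these, the ETS letters in 3 and 1, and the oestrogen-related receptor letters in 0 and 1. The YY1 matches are shown because they share place and direction: each reads along the gene and begins 23 to 39 bases after the start. The letters also hold ATG, so in this place and direction a match can be the start codon of the protein. Whether these matches are start codons, YY1 sites or both was not tested. Capitals mark the match.
Ndufa3 (chr7:3617387-3617410, plus strand): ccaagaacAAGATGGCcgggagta
Ndufa9 (chr6:126849100-126849123, minus): tgtgggagAAGATGGCggccgccg
Ndufb8 (chr19:44555393-44555412, minus): agaaggtgAAGATGGCtgcc
Ndufc1 (chr3:51408918-51408941, minus): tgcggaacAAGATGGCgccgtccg
Ndufs4 (chr13:114388045-114388067, minus): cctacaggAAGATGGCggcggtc
Ndufs7 (chr10:80249465-80249488, plus): ccgaggccAAGATGGCggcgctgg

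Between P2 and P7 limma called 0 of the 33 members in either direction, with 10 higher and 0 lower at an unadjusted p under 0.05 (6.22% of all genes were higher at that level). Over all genes 0.185% were called higher and 0.144% lower, and 0.324% of the brighter genes were called higher. The median change was 0.30 (1.23-fold) and 30 of 33 estimates were above 0, against 49.2% of all genes. In 12 members the P7 arrays all lay above the P2 arrays, as in 7.3% of all genes and 7.77% of the brighter ones. Ndufb9 (0.85 ± 0.23, adjusted p = 0.124), Ndufs4 (0.67 ± 0.22, 0.2), Ndufa12 (0.59 ± 0.20, 0.218) and Ndufa7 (0.59 ± 0.18, 0.182) had the largest estimates. Ndufb11 (-0.21), Ndufa2 (-0.17) and Ndufs5 (-0.04) were below 0. The median was 0.15 without P2 replicate 1 and 0.28 to 0.37 without any of the other P2 or P7 arrays. Ndufb9 alone was called when P2 replicate 3 was left out (1.12 ± 0.20, adjusted p = 0.0295).

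In the second week, from P7 to P14, 6 members rose and 0 fell, against 1.72% and 0.703% of all genes and 3.13% of the brighter genes called higher. They were Ndufs1 (0.89 ± 0.16, 1.85-fold, adjusted p = 0.00840), Ndufb8 (0.92 ± 0.17, 0.00953), Ndufb3 (1.06 ± 0.21, 2.09-fold, 0.0165), Ndufa3 (0.71 ± 0.17, 0.0472), Ndufc1 (0.71 ± 0.18, 0.0491) and Ndufab1 (0.62 ± 0.15, 0.0493). They come from the core, both ends of the membrane arm and the acyl carrier. The median over the 33 was 0.56 (1.48-fold), 32 estimates were above 0 (52.3% of all genes), and 23 were higher at an unadjusted p under 0.05 (9.58%). In 30 members all P14 arrays lay above all P7 arrays, which was so for 14.8% of all genes and 24.3% of the brighter ones. Only Ndufb7 (-0.10 ± 0.19) had an estimate below 0, and Ndufa7 was at 0.06 ± 0.18.

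The single calls of the second week were not stable to the loss of an array. Each of the 6 was lost at least once, Ndufs1 only without P14 replicate 1 (adjusted p = 0.0517) and Ndufb8 without P7 replicate 2 or P14 replicates 1 or 3 (up to 0.0680). Ndufb3 lost it without P7 replicates 1 or 2 or any P14 array (up to 0.0834), and Ndufa3, Ndufc1 and Ndufab1 when any P7 or P14 array was removed (up to 0.185, 0.230 and 0.181). The calls of Ndufa3, Ndufc1 and Ndufab1 also ended with cyclic loess (0.122, 0.122 and 0.153) and with the replicate number as a block (0.0721, 0.0825 and 0.0788). Those of Ndufc1 and Ndufab1 (0.0537 for Ndufab1) ended as well when the arrays were centred on their medians. The number called was 2, 1 and 3 without P7 replicates 1, 2 and 3, and 0, 2 and 1 without the P14 replicates in the same order, while the median stayed at 0.52 to 0.59. Calls over all genes fell as well, from 538 to 316, 296 and 276 without the P7 replicates and to 220, 214 and 229 without the P14 replicates.

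**Figure D2:**
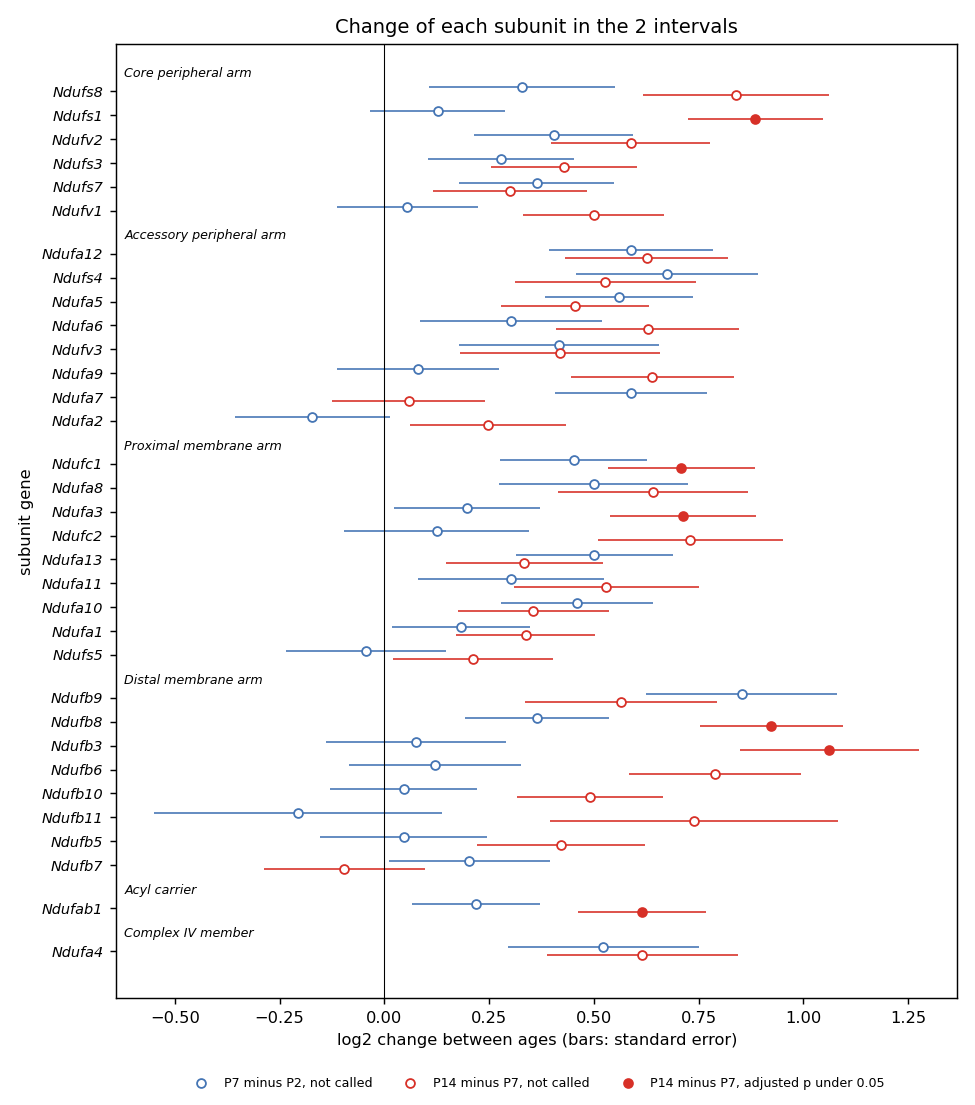
Log2 change of each subunit gene from P2 to P7 (blue) and from P7 to P14 (red), with standard errors from the limma fit of all 9 arrays. Filled points have an adjusted p under 0.05; these are the 6 genes called in the second week, and no blue point is filled.

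The later interval, of 7 days, had the larger estimate in 25 of 33 members (54.1% of all genes) and the earlier one, of 5 days, in 8. The median difference between them was 0.26. Limma called 0 members for this difference, where 0.0361% of all genes were called higher and 0.158% lower. At an unadjusted p under 0.05, 2 members were higher (4.6% of all genes). The nearest were Ndufs1 (0.76, unadjusted p = 0.0164, adjusted p = 0.484) and Ndufb3 (0.99, 0.0183 and 0.495). Ndufa7 (-0.53), Ndufb9 (-0.29) and Ndufb7 (-0.30) had estimates the other way, also not called. A difference in timing between the weeks was therefore not shown for any single subunit. Means rose in both weeks in 29 of 33 members, as in 23.9% of all genes and 30.8% of the brighter ones.

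**Figure D3:**
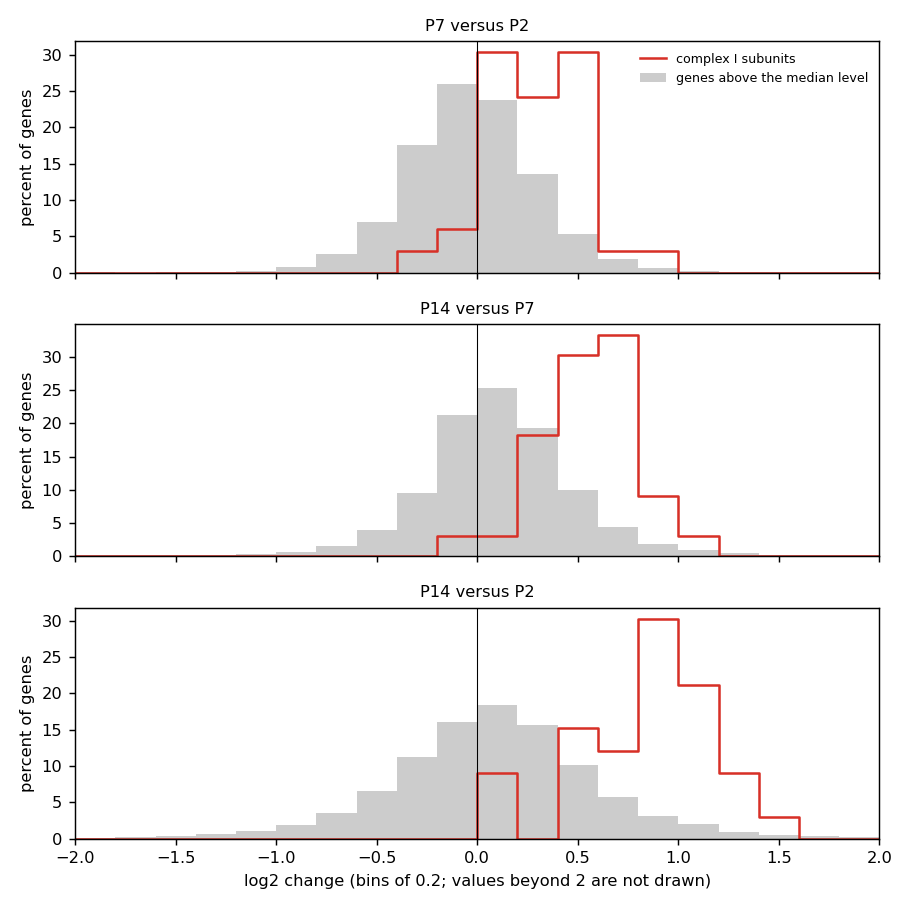
Distribution of log2 changes in each pair of ages, as the percent of genes in bins of 0.2, for the 33 complex I subunit genes (red line) and the 12051 genes brighter than the median of all genes (grey bars). The subunits' medians are 0.30, 0.56 and 0.84 from top to bottom, and those of the grey bars -0.03, 0.09 and 0.08.

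Spread among the P2 arrays limits the comparisons with that age. The members' median SD went from 0.35 among the P2 arrays to 0.14 among the P7 arrays and 0.09 among the P14 arrays, against 0.26, 0.19 and 0.15 for the brighter genes, and 28 of 33 members had a larger SD at P2 than at P14. The members' median level was 5.83, 6.26 and 6.43 on the 3 P2 arrays, 6.27, 6.44 and 6.35 at P7, and 7.13, 6.88 and 6.84 at P14. P2 replicate 1 was the lowest P2 array in 26 of 33 members (78.8%), against 32.5% of all genes. The same array was lowest in the adult fast myosins: Myh4 read 5.33, 8.85 and 10.26 on the P2 arrays, Myh1 5.19, 6.64 and 7.71, and Myh2 4.48, 5.66 and 6.74. Actin Acta1 (11.92, 11.91 and 12) and titin Ttn (11.37, 11.44 and 11.19) did not set it apart. Among markers of other cells, its summed linear intensity was the highest of the P2 arrays for neutrophil precursors (176, 42 and 114). For erythroid (79, 21 and 135), cartilage and bone (403, 468 and 143), fibroblast (4244, 3626 and 5333) and macrophage markers (227, 190 and 311) it lay between the other P2 arrays. It was the lowest P2 array for adipocyte (587, 774 and 793), endothelial (443, 469 and 702) and Schwann cell markers (21, 26 and 39). Without this array the members' median from P2 to P14 was 0.69, with 18 called.

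Markers of cell types moved with age as well, and their part in the complex I changes was not tested. In whole muscle, more fibres and more RNA per fibre cannot be told apart. Of 8 muscle fibre markers 6 rose from P2 to P14 and Acta1 (0.17 ± 0.16) and Ttn (0.10 ± 0.16) were not called. The summed linear intensity of these markers was 9184 to 10658 on the P2 arrays, 15459 to 16929 on the P7 arrays and 19174 to 19413 on the P14 arrays. The adult fast myosins Myh4 (4.28 ± 0.79), Myh2 (3.59 ± 0.43) and Myh1 (3.34 ± 0.42) had the largest changes among them. The sums include this change of the myosin genes and do not measure fibre content. Neutrophil precursor markers went the other way (3 of 6 fell; sums of 42 to 176, 54 to 86 and 36 to 42 at the same ages). So did cartilage and bone markers (2 of 5 fell, with sums of 143 to 468, 114 to 239 and 77 to 81). Among erythroid markers 1 of 2 measured fell, and the sums over the 2 were 21 to 135, 38 to 71 and 18 to 23. Among fibroblast markers 1 of 5 fell, and the sums over the 5 were 3626 to 5333, 3535 to 4463 and 3115 to 3609. Of 6 adipocyte markers Adipoq alone was called, and it fell from P2 to P14 (-0.92 ± 0.20). The sums over the 6, in which Fabp4 was the brightest (0.09 ± 0.19, not called), were 587 to 793, 700 to 842 and 649 to 852. The brown fat gene Ucp1 was at 2.51 to 3.11 on all arrays but P14 replicate 3 (5.16). None of 6 endothelial (443 to 702, 597 to 778 and 717 to 795), 5 macrophage (190 to 311, 203 to 280 and 225 to 238) or 2 Schwann cell markers (21 to 39, 21 to 33 and 23 to 39) was called between P2 and P14, where 3, 1 and 0 had an unadjusted p under 0.05.

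Assembly factors, which build complex I but are not part of it, shared the direction. From P2 to P14, 8 of 18 measured rose and 0 fell (median 0.68), from P7 to P14 4 rose, and from P2 to P7 limma called 0, with 1 at an unadjusted p under 0.05. Ecsit was at 4.32, 4.26 and 5.02 at P2, 5.39, 4.26 and 5.01 at P7, and 6.14, 6.10 and 6.20 at P14. Its P14 arrays were above all others (P14 versus P7, 1.26 ± 0.26, 2.40-fold, adjusted p = 0.0204). Ndufaf6 (1.09 ± 0.22, 0.0152), Tmem126b (0.91 ± 0.21, 0.0339) and Ndufaf1 (0.85 ± 0.20, 0.0433) also rose in the second week. Each of these 4 calls was lost without P14 replicate 1, without P14 replicate 2 and without at least 1 P7 array (adjusted p up to 0.0909 for Ecsit, 0.0805, 0.149 and 0.206 for the others). Over the whole span Ndufaf4 rose 2.46-fold (adjusted p = 0.000789) and Ecsit 3.05-fold (0.00125), and both calls survived the removal of any 1 array. The largest negative estimate was that of Nubpl (-0.40 ± 0.20, not called), which delivers iron-sulfur clusters to complex I.

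Subunits of the other respiratory complexes were measured on the same arrays; the difference from complex I was not tested. From P2 to P14, 4 of 4 genes of complex II, 5 of 8 of complex III, 7 of 12 of complex IV and 6 of 15 of complex V rose, and 0 fell in each. Their medians were 0.76, 0.78, 1.05 and 0.46, beside 26 of 33 and 0.84 for complex I. The complex V genes include Atpif1, which encodes an inhibitor of the enzyme and not a subunit. Those of complex IV include the paired tissue forms of Cox6a, Cox7a and Cox8, so the shares are not of like sets. Cox6a1, the complex IV form found in most tissues outside adult muscle and heart, had the most negative estimate (-0.52 ± 0.20, unadjusted p = 0.0214, adjusted p = 0.122). From P7 to P14 limma called 2 of these 39 genes, Uqcrc1 of complex III (1.0 ± 0.18, adjusted p = 0.00740; 0.0517 without P14 replicate 1) and the muscle form Cox7a1 of complex IV (1.12 ± 0.27, 0.0398; lost without any P7 or P14 array, up to 0.159), with 21 higher at an unadjusted p under 0.05.

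**Figure D4:**
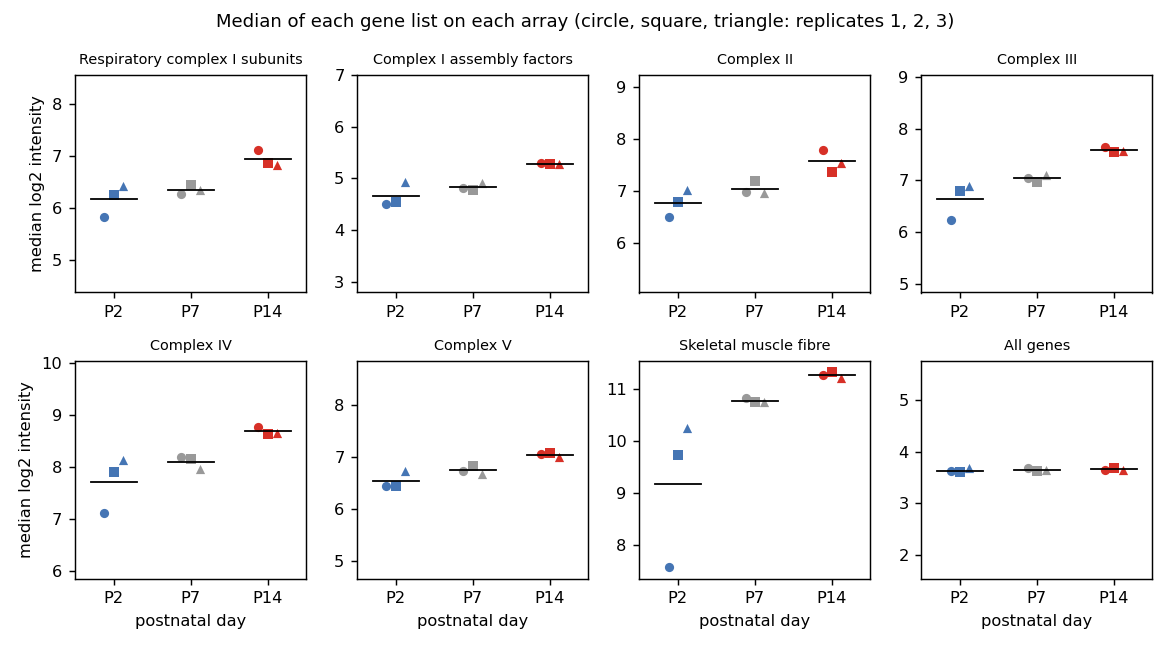
Median log2 intensity of the measured genes of each list on each array; shapes mark replicates 1 to 3, black lines the mean of 3 arrays, and all panels span the same log2 range. Complex I subunits go from 5.83, 6.26 and 6.43 at P2 to 7.13, 6.88 and 6.84 at P14, P2 replicate 1 is the lowest P2 array in all panels but that of all genes, and the all-gene median stays between 3.60 and 3.69.

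Among genes of mitochondrial content and biogenesis 6 of 16 rose from P2 to P14, 0 fell, and the median was 0.37. The coactivator Ppargc1a read 4.83, 5.34 and 5.28 at P2, 5.37, 5.46 and 5.37 at P7, and 6.03, 6.54 and 6.24 at P14, with P14 clear of the rest (P14 versus P7, 0.86 ± 0.19, 1.82-fold, adjusted p = 0.0274; lost without any P7 array or P14 replicates 2 or 3, up to 0.154). Perm1, a muscle gene that acts downstream of it, was at 4.12, 4.42 and 5.01, then 4.76, 4.47 and 4.59, then 6.27, 6.18 and 6.26. It rose 3.09-fold in the second week (1.63 ± 0.21, adjusted p = 0.000456; at most 0.00457 when any 1 array was removed). Citrate synthase (Cs) rose by 0.91 ± 0.18 over the whole span (adjusted p = 0.00495). Among the transcription factor genes of this list the oestrogen-related receptors Esrrg (0.70 ± 0.17, adjusted p = 0.0162) and Esrra (0.81 ± 0.24, 0.0435) rose between P2 and P14. The call of Esrrg was lost without P14 replicates 1 or 3 (up to 0.0803) and that of Esrra in 8 of the 9 removals of 1 array, all but that of P2 replicate 3 (up to 0.169). The others, Esrrb (-0.12 ± 0.22), Nrf1 (-0.20 ± 0.19), Gabpa (-0.14 ± 0.20), Tfam (-0.05 ± 0.20) and Tfb2m (0.32 ± 0.29), were not called (adjusted p = 0.797, 0.578, 0.739, 0.920 and 0.563). Esrrb lay above the receptor level on only 2 of 9 arrays.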

How the data were processed

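RNA of 9 hindlimb muscle samples was hybridised as biotinylated cRNA, 1 array a sample. The authors deposited log2 intensities for 41345 probe sets; the submitters' processing notes name RMA and Partek, whose versions are not given in the sources used, and the log2 base is taken from RMA. Neither array type nor genome build was given. Of 25335 listed probe sets, 23521 had 1 gene symbol and 1814 several; 23328 matched RefSeq (GRCm38.p6) by Entrez number. The brightest single-symbol probe set of each gene was kept (22180 genes, no filter on dim genes). Limma 3.58.1 in R 4.3.3 was fitted on all 9 arrays with 1 mean an age; p-values were two-sided with Benjamini-Hochberg adjustment over the 22180 genes. The fit was tested on simulated data. The number of arrays, not a read depth, limits precision. The members and lists were chosen with earlier results of these data known. Values on every array are given for the 14 members with the smallest adjusted p and for members of extreme level or smallest change. Those of Ndufa7 and Ndufb7 are given outside this rule. Other genes named are called list members or were chosen after their values were seen. Alternatives were another scaling, a filter on dim genes, the mean over probe sets, a replicate block, a variance trend, array weights, only the 2 ages compared, and leaving out each array. Same-numbered replicates did not deviate together (correlations of -0.03 to 0.06 across genes), so the numbers were not taken as pairs.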

Additional observations from a re-analysis of the deposited data

How the results depend on the processing

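The count called higher from P2 to P14 (26) was 19 to 28 under the alternatives that kept all arrays and 17 to 27 when 1 array was left out, and 17 of the 26 members kept the call in all 17 alternatives. From P7 to P14 the count of 6 was 4 with arrays centred on medians, 3 with cyclic loess and 3 with the replicate block. It was 13 with array weights, 13 when only these 2 ages were fitted, and 0 to 8 when 1 array was left out. Over all genes the 538 calls of these ages became 542, 453, 458, 1221 and 1051 in the same order of settings. When 1 array was left out they were 214 (P14 replicate 2) to 794 (P2 replicate 2). The causes were not tested. With the replicate block the count from P2 to P14 was 24. From P2 to P7 the count was 0 to 1 when 1 array was left out, and 0 in the other alternatives. Calls from P2 to P14 lost with cyclic loess were those of Ndufa7, Ndufa9, Ndufa11, Ndufs3, Ndufs7, Ndufv1 and Ndufv3 (adjusted p = 0.0529 to 0.159). No member was called lower in any alternative run. The median change was 0.15 to 0.37 (P2 to P7), 0.52 to 0.59 (P7 to P14) and 0.69 to 0.97 (P2 to P14) when 1 array was left out. Under the alternatives that kept all arrays it was 0.28 to 0.33, 0.45 to 0.58 and 0.705 to 0.88 in the same order. The 0.45 from P7 to P14 came with cyclic loess. The median difference between the intervals was 0.18 to 0.39 when 1 array was left out, and 0.10 with cyclic loess. The estimates that changed sign from P2 to P14 were those of Ndufa2 (-0.0494 with cyclic loess, and -0.11 without P2 replicate 1 to 0.21 without P2 replicate 2) and Ndufb7 (-0.0222 with cyclic loess, and -0.0943 without P2 replicate 1 to 0.25 without P2 replicate 3), neither called. Over all genes, cyclic loess moved the split of calls from 382 higher and 156 lower to 240 and 213 (P7 to P14), and from 1470 and 977 to 1216 and 1318 (P2 to P14). Ndufs5 and Ndufb11 are limited by signal near background.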
